A study of Mus musculus with 12 samples.

Results

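The genes described here make the proteins that copy DNA and supply its nucleotides. A list of 50 was searched for on a whole-transcript mouse gene array, and 49 had a probe set annotated with that gene symbol alone, out of 22180 genes so measured. Rfc4 was not analysed here. The data are liver RNA from male C57BL6/J mice aged 8 to 10 weeks injected in the tail vein with an Ad5 adenovirus and killed 4 days later after a 6 h fast. In 6 livers the virus carried GFP, green fluorescent protein (Ad-GFP, arrays GFP 1 to GFP 6), and in the other 6 it carried human ApoF, a lipoprotein-associated secreted protein (Ad-hApoF, arrays hApoF 7 to hApoF 12). Both groups therefore carried a virus, and the labels give no viral dose. They name neither the promoter of the transgene nor the liver cells infected. The transgene is human and the array was designed for mouse genes, so no value here checks the group labels. The mouse gene Apof stood at 11.06 ± 0.08 (SD, n = 6) in GFP and 11.10 ± 0.11 (n = 6) in hApoF livers (log2 difference 0.04, limma adjusted p = 0.792). Nor do the labels say that each array came from a different animal, so p-values reflect only the scatter among these arrays.

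Before S phase, the origin recognition complex, Cdc6 and Cdt1 load the ring-shaped Mcm helicase onto DNA. Kinases then activate it with Cdc45 and the GINS complex, and polymerases, a sliding clamp and a ligase copy both strands behind it. Many of these genes are transcribed under E2F factors when a cell leaves quiescence. Adult hepatocytes rarely divide but re-enter the cycle after injury or loss of liver mass.

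Livers given hApoF had lower levels of most of these transcripts than livers given GFP virus. Of the 49 genes 36 fell, 0 rose and 13 did not pass the test, where 6.91% of all genes were called, 4.8% lower and 2.11% higher. The test was limma's moderated fit across all 22180 genes with Benjamini-Hochberg adjustment and a threshold of 0.05. Levels are log2 RMA values as deposited, and changes are log2 differences, hApoF minus GFP. The median change of the 49 genes was -0.65, against 0.03 over all genes. Of those that fell, 13 were at least 2-fold lower, a size that 0.667% of all genes reached. Every hApoF array lay below every GFP array for 28 of the 49, as it did for 3.49% of all genes. The changes ran from -1.79 for Mcm6 to 0.25 for Fen1, and 48 of the 49 had a value below 0.

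**Figure D1:**
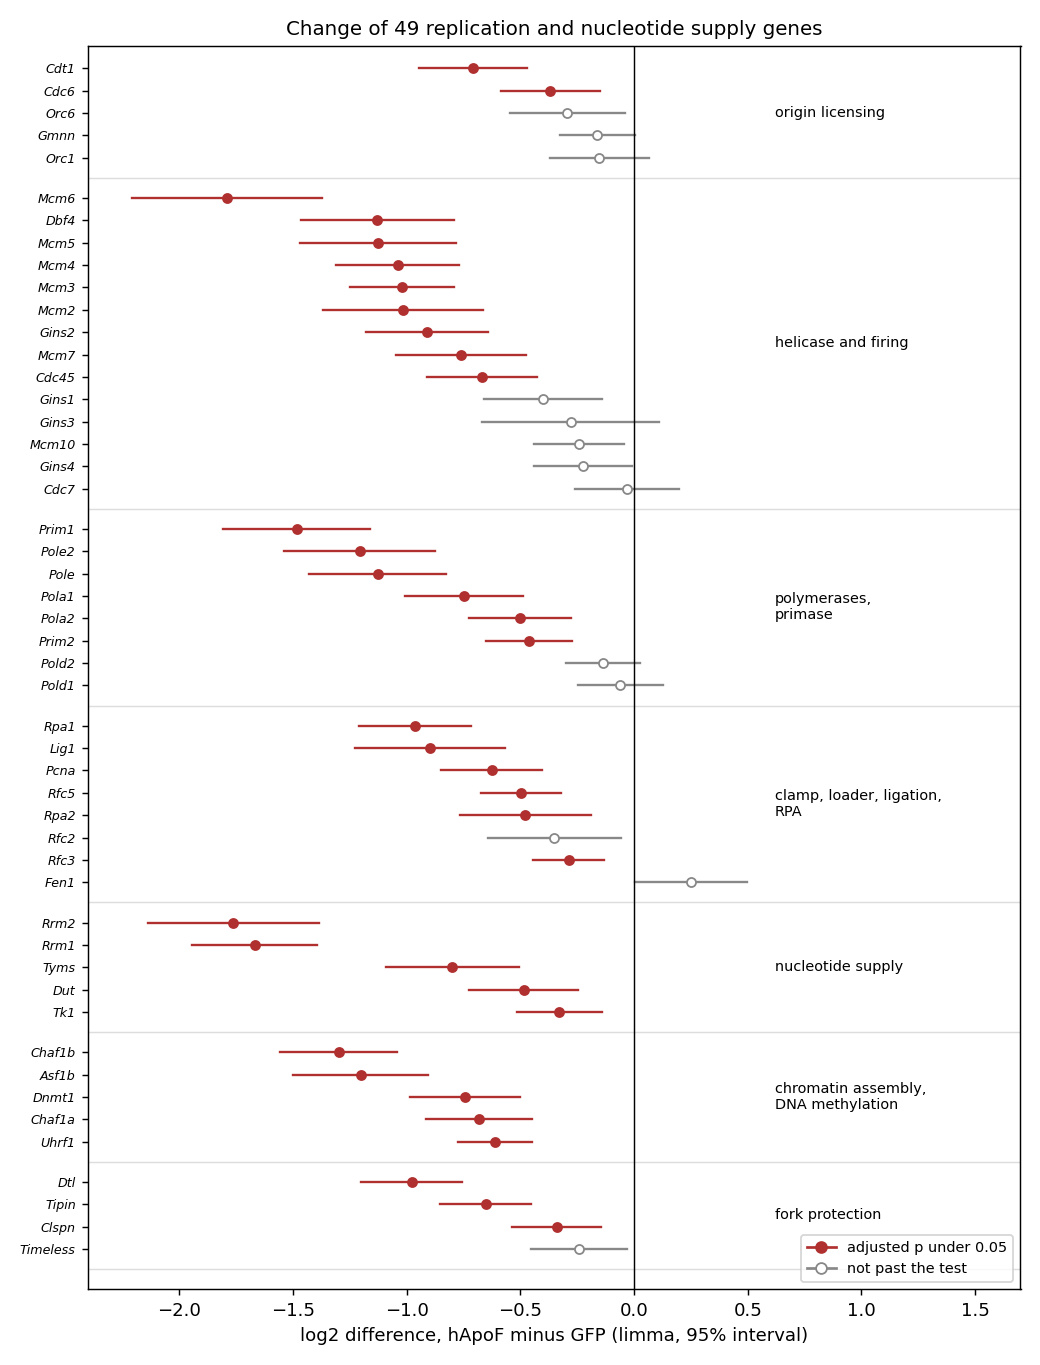
Log2 difference between 6 hApoF and 6 GFP livers for each of the 49 genes (points) with its 95% interval from limma (lines), grouped by role and ordered by size. Filled red points passed an adjusted p of 0.05, open grey points did not. All 36 that passed lie left of 0, with Mcm6, Rrm2, Rrm1 and Prim1 farthest out.

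The arrays differed in how far they moved. Averaged over the 49 genes, the hApoF arrays lay between 0.532 (hApoF 10) and 0.894 (hApoF 12) below the GFP mean on the log2 scale. The GFP arrays lay within 0.202 above it (GFP 6) and 0.306 below it (GFP 4). GFP 4 was the lowest GFP array for 38 of the 49 genes, GFP 6 the highest for 27, and hApoF 12 was the lowest hApoF array for 27. GFP 4 also resembled the hApoF arrays in the quartiles of all its values (lower quartile 3.80, against 3.66 to 3.72 on the other GFP arrays and 3.74 to 3.80 on hApoF arrays). Without GFP 4 and hApoF 12 together, 35 genes were called lower and 0 higher, with a median change of -0.66.

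**Figure D2:**
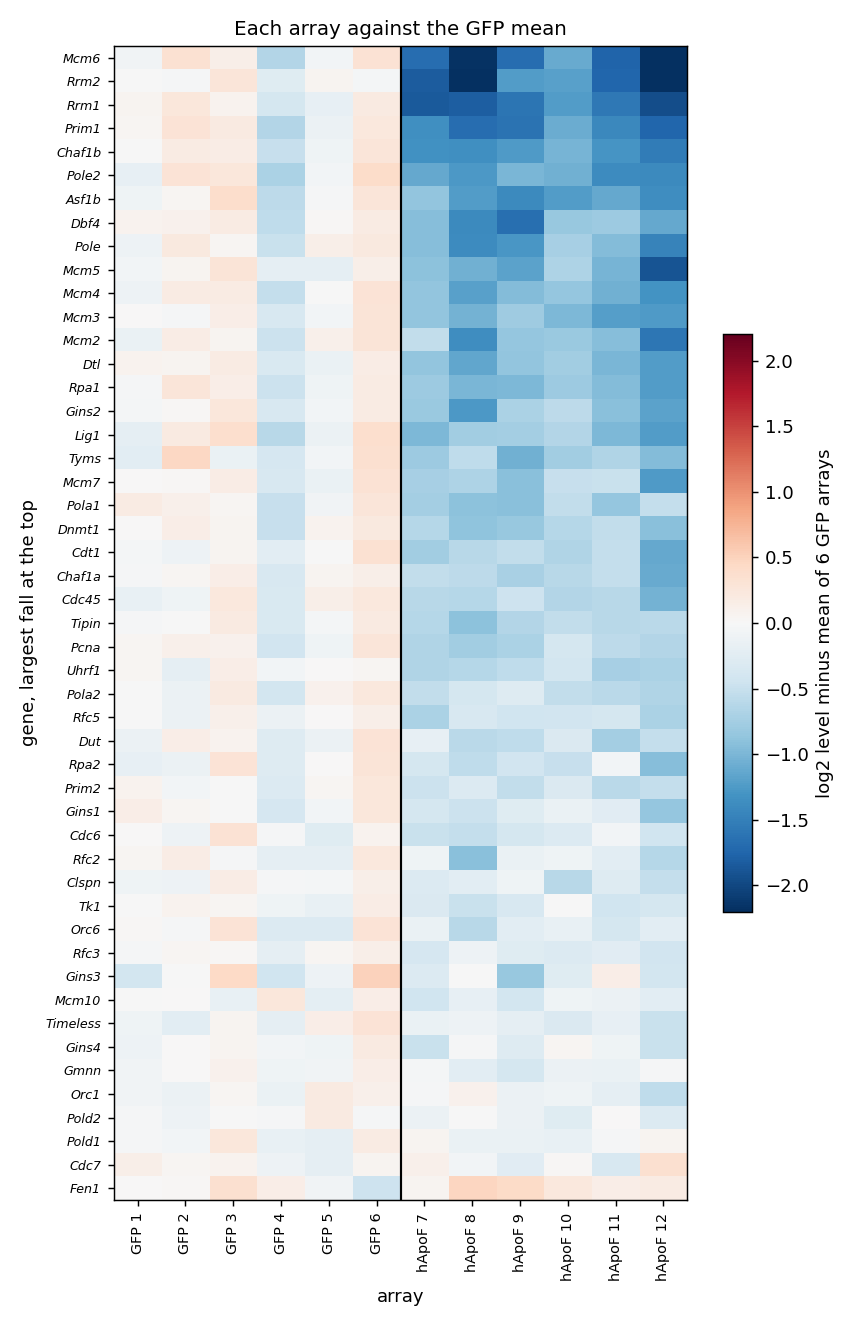
Log2 level of each of the 49 genes (rows, largest fall at the top) on each of the 12 arrays (columns), minus the mean of the 6 GFP arrays. Blue marks lower and red higher values. The 6 hApoF columns are blue through most rows, GFP 4 is pale blue in many, and Fen1 at the bottom is the only gene with a mean above 0.

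RNA came from whole liver, in which fewer cells of a type and less RNA per cell cannot be told apart. Mki67, a marker of cycling cells, fell from 8.86 ± 0.30 (SD, n = 6) to 7.20 ± 0.47 (n = 6), a log2 change of -1.66 (limma adjusted p = 6.7e-05). For the marker counts that follow, the background is that 4716 of all 22180 genes had an unadjusted limma p under 0.05. Of 12 Kupffer cell and macrophage markers 2 rose (Clec4f and Vsig4), 0 fell and 3 had an unadjusted p under 0.05. The median difference of the 12 was 0.13, and 2 of them had values below 0. Their summed log2 level was 81.8 to 94.8 on GFP and 87.2 to 96.5 on hApoF arrays. Of 9 sinusoidal endothelial markers 3 rose, 0 fell and 7 had an unadjusted p under 0.05 (sums 70.7 to 74.7 and 73.6 to 77.2). All 9 had values above 0, with a median difference of 0.31. Of 9 stellate cell and fibroblast markers 3 rose, 0 fell and 6 had an unadjusted p under 0.05, with a median difference of 0.26 (sums 65.0 to 68.1 and 67.3 to 70.3). Of 10 hepatocyte markers 0 passed the limma test and 4 had an unadjusted p under 0.05 (sums 119.03 to 120.5 and 120.02 to 121.8). Their median difference was 0.14, and 2 had values below 0. For 2 of the 10 every hApoF array lay above every GFP array. This also held for 2 of the 9 stellate cell and fibroblast markers and 330 of all 22180 genes. Of 5 cholangiocyte markers 0 passed and 3 had an unadjusted p under 0.05 (23.5 to 24.1 and 23.2 to 24.96). Of 13 lymphocyte markers 0 passed and 4 had an unadjusted p under 0.05, with sums of 60.7 to 64.6 and 61.6 to 64.8, and 1 of the 13 had a GFP mean above the array medians. Of 8 neutrophil markers 1 rose, 0 fell and 3 had an unadjusted p under 0.05 (sums 31.3 to 33.5 and 31.9 to 35.5), and 0 had such a mean. Of 3 erythroid precursor markers 0 passed and 1 had an unadjusted p under 0.05 (16.5 to 17.0 and 16.7 to 17.9). Median differences were 0.18 for cholangiocyte, 0.07 for lymphocyte, 0.15 for neutrophil and 0.13 for erythroid precursor markers. The part of these cell types in the changes of the replication genes was not tested.

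The bases upstream of the gene starts are shown for some of the 49 genes, picked because they hold matches to E2F sites. Whether such sites had a part in the changes was not tested. The sequences are RefSeq windows (GRCm38.p6), here the last 150 bases before the gene start, written on the gene's strand with matches in capitals. The word TTGGCGC was searched on both strands, and so was its variant TTCGCGC. The word TTCCCGC was treated likewise, as was its variant TTGCCGC. Where capitals run longer than 7 bases they cover overlapping words. The first set are genes that fell, from 5 roles.
Mcm6 (chr1:128359706-128359855, minus strand): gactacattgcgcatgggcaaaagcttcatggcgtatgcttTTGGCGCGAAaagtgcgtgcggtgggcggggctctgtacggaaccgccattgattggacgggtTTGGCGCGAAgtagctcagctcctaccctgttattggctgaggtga
Rrm1 (chr7:102441545-102441694, plus strand): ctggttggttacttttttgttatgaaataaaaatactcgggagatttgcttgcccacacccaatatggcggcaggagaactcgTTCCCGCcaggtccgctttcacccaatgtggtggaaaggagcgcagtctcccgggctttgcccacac
Prim1 (chr10:128015065-128015214, plus strand): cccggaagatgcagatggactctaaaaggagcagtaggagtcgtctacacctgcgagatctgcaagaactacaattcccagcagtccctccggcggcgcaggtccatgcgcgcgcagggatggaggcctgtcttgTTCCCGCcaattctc
Dtl (chr1:191575545-191575694, minus strand): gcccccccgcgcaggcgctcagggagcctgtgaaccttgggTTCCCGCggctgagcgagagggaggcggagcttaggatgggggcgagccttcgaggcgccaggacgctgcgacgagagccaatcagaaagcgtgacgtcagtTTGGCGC
Pola1 (chrX:93632156-93632305, minus strand): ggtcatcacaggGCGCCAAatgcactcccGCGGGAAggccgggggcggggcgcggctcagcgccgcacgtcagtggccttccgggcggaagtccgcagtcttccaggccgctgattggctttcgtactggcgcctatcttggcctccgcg
Chaf1a (chr17:56040266-56040415, plus strand): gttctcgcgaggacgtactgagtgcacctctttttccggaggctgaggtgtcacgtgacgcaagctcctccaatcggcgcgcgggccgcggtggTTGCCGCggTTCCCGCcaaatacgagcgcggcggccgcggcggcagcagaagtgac

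The second set are genes that did not pass the test and also hold a match.
Gins3 (chr8:95633409-95633558, plus strand): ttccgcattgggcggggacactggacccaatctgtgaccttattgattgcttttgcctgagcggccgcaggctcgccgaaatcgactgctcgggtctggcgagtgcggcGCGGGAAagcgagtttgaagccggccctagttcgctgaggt
Orc1 (chr4:108579304-108579453, plus strand): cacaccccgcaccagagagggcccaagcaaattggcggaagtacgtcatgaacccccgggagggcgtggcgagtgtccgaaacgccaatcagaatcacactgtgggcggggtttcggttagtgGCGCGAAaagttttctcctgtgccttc
Cdc7 (chr5:106964411-106964560, plus strand): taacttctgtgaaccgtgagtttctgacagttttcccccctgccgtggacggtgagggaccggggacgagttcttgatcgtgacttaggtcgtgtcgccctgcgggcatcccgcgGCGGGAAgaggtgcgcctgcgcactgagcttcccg

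Windows were found for 40 of the 49 genes, and some genes had several. Over the 250 bases before the start, 17 of 37 windows of genes that fell (45.9%) and 4 of 12 windows of genes that did not pass (33.3%) held an E2F word. The share was 10.0% of 21263 protein-coding RefSeq windows. The CCAAT box word CCAAT was in 23 of the 37 (62.2%) and 5 of the 12 (41.7%), against 35.4% of protein-coding windows. The CHR word TTTGAA, an element known from genes of late cell cycle phases, was in 4 of the 37 (10.8%) and 4 of the 12 (33.3%), against 14.5%. These shares count windows, not genes, over 250 bases, and the difference between the groups was not tested. Within the 150 bases nearest the start, the 4 windows of genes that did not pass kept an E2F word. Some of the 17 windows of genes that fell did not, among them that of Rrm2. Within those 150 bases the E2F share of genes that fell was no higher than that of genes that did not pass. Counted by gene over the 250 bases, the shares also lay closer than when counted by window. Mcm6 held 2 stretches of overlapping E2F words. A match describes these letters and shows no binding.

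Among the licensing genes 2 of 5 fell. Cdt1, which brings the Mcm helicase to origins, was between 6.44 and 7.001 (median 6.63) in GFP livers and between 5.54 and 6.13 (median 6.02) in hApoF livers. The groups did not overlap for it (log2 change -0.71, SE 0.11, limma adjusted p = 9.5e-04). Cdc6, the ATPase that loads Mcm with Cdt1, was between 4.66 and 5.25 (median 4.92) in GFP livers and between 4.397 and 4.86 (median 4.51) in hApoF livers. Of its 6 hApoF arrays 5 lay below the lowest GFP array (log2 change -0.37, SE 0.10, limma adjusted p = 0.040). Its call was lost in 9 of 12 omissions of a single array, all but those without GFP 4, GFP 5 or hApoF 11 (limma adjusted p 0.017 to 0.087). The Cdc6 probe set was also dim, with means of 4.92 in GFP and 4.56 in hApoF livers against array medians of 4.93 to 5.03.

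The other licensing genes overlapped between the groups. Gmnn, geminin, which binds and inhibits Cdt1, was between 5.51 and 5.75 (median 5.58) in GFP livers and between 5.23 and 5.58 (median 5.48) in hApoF livers (log2 difference -0.16, 95% interval -0.32 to 0.00, limma adjusted p = 0.244). Orc6, a subunit of the origin recognition complex, was between 5.91 and 6.51 (median 6.21) in GFP livers and between 5.61 and 6.07 (median 5.98) in hApoF livers (log2 difference -0.29, 95% interval -0.55 to -0.04, limma adjusted p = 0.165). Orc1, the subunit that is known to vary over the cycle, was between 3.92 and 4.27 (median 4.05) in GFP livers and between 3.501 and 4.15 (median 3.95) in hApoF livers (log2 difference -0.15, 95% interval -0.37 to 0.07, limma adjusted p = 0.427). The Orc1 probe set was dim, with means of 4.06 in GFP and 3.91 in hApoF livers against array medians of 4.93 to 5.03, so a fall could be missed. With the other subunits of the origin recognition complex, Orc2 to Orc5, added after their values were seen, 0 of 6 passed the limma test. An unadjusted p under 0.05 was found for 1 of the 6 subunits, and for 4716 of all 22180 genes. The changes of the 6 subunits lay between -0.29 (Orc6) and 0.04 (Orc4).

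The largest fall of the 49 genes was that of a helicase subunit. All 6 genes of the Mcm2 to Mcm7 ring fell, with no overlap between groups, by 0.76 (Mcm7) to 1.79 (Mcm6) on the log2 scale. Mcm6 was between 7.78 and 8.77 (median 8.47) in GFP livers and between 6.08 and 7.32 (median 6.71) in hApoF livers. It was 3.46-fold lower in hApoF livers (log2 change -1.79, SE 0.20, limma adjusted p = 4.2e-05) and ranked 27 among the falls of all 22180 genes. Mcm3 was between 6.97 and 7.61 (median 7.33) in GFP livers and between 6.09 and 6.55 (median 6.32) in hApoF livers. Its fall of 2.03-fold had the lowest p among the helicase and firing genes (log2 change -1.02, SE 0.11, limma adjusted p = 3.4e-05). Mcm4 was between 6.999 and 7.82 (median 7.600) in GFP livers and between 6.204 and 6.68 (median 6.51) in hApoF livers (log2 change -1.04, SE 0.13, limma adjusted p = 1.2e-04). The changes of Mcm2 (-1.02) and Mcm5 (-1.13) were close to those of Mcm3 and Mcm4, and the difference between Mcm6 and these was not tested.

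Of the factors that turn the loaded ring into a moving helicase, Cdc45 and 1 of 4 GINS subunits passed the test, and all 5 had values below 0. Cdc45, a helicase cofactor, fell from 5.79 ± 0.23 (SD, n = 6) to 5.12 ± 0.19 (n = 6) (log2 change -0.67, SE 0.11, limma adjusted p = 0.0018), and its groups lay apart. Of the 4 GINS subunits, which clamp Cdc45 to the ring, Gins2 alone fell, from 6.62 ± 0.21 (SD, n = 6) to 5.71 ± 0.27 (n = 6) (log2 change -0.91, SE 0.13, limma adjusted p = 3.4e-04). Gins1 was between 4.81 and 5.44 (median 5.19) in GFP livers and between 4.33 and 5.03 (median 4.85) in hApoF livers (log2 difference -0.40, 95% interval -0.66 to -0.14, limma adjusted p = 0.060). It was called lower without GFP 4, without hApoF 10, without GFP 4 and hApoF 12 together (limma adjusted p = 0.014), with array weights (0.033) and with trend and robust settings (0.046), and its adjusted p over omissions of 1 array was 0.019 to 0.134. Gins4 was between 7.79 and 8.09 (median 7.87) in GFP livers and between 7.398 and 7.93 (median 7.71) in hApoF livers (log2 difference -0.22, 95% interval -0.44 to -0.01, limma adjusted p = 0.217). Gins3 was between 5.24 and 6.17 (median 5.61) in GFP livers and between 4.84 and 5.82 (median 5.38) in hApoF livers (log2 difference -0.28, 95% interval -0.67 to 0.11, limma adjusted p = 0.409). Their arrays overlapped between the groups.

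Mcm10, which helps to start the helicase, was between 7.001 and 7.46 (median 7.21) in GFP livers and between 6.77 and 7.12 (median 7.01) in hApoF livers (log2 difference -0.24, 95% interval -0.44 to -0.05, limma adjusted p = 0.139), with 3 hApoF arrays below the lowest GFP array. Dbf4, the activating subunit of the kinase that fires origins, was between 6.36 and 7.11 (median 7.01) in GFP livers and between 5.26 and 6.13 (median 5.89) in hApoF livers. It fell 2.19-fold (log2 change -1.13, SE 0.16, limma adjusted p = 3.5e-04). Its catalytic partner Cdc7 was between 4.64 and 4.97 (median 4.89) in GFP livers and between 4.49 and 5.18 (median 4.83) in hApoF livers, and the groups overlapped through most of their range (log2 difference -0.03, 95% interval -0.26 to 0.20, limma adjusted p = 0.901). The Cdc7 value was above 0 without hApoF 9 or without hApoF 11, up to 0.03.

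**Figure D3:**
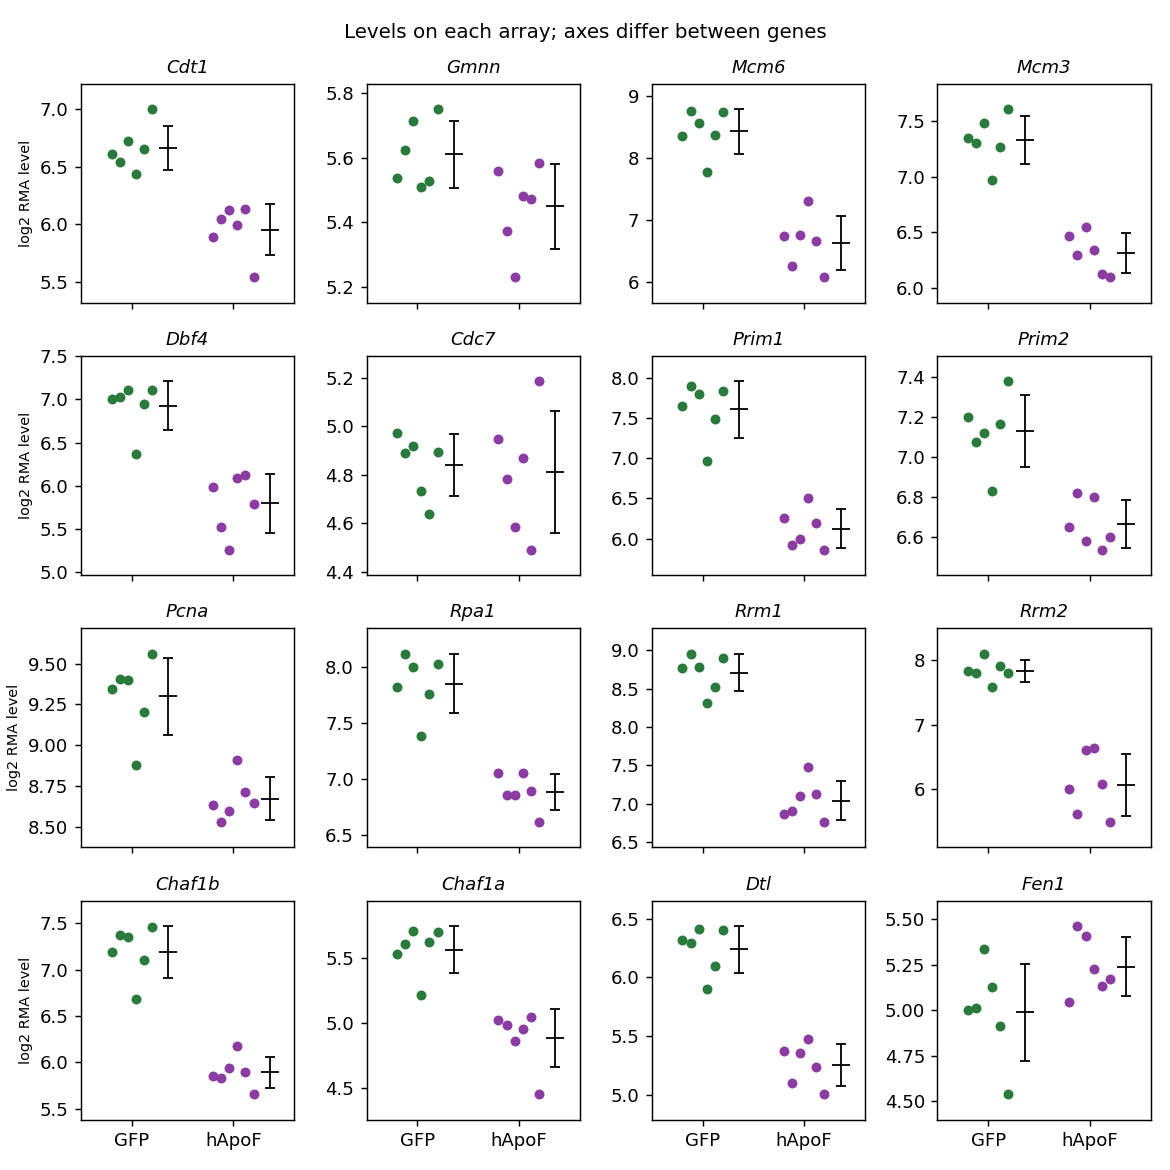
Log2 RMA level of 16 genes on each array (points, GFP in green and hApoF in purple) with mean and SD of 6 arrays (black bars); the vertical axes differ between genes. Mcm6, Prim1, Rrm1 and Rrm2 show a gap between the groups, while Gmnn, Cdc7 and Fen1 overlap.

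Of 8 polymerase and primase genes 6 fell. Prim1, the catalytic subunit of the primase that makes RNA primers, was between 6.96 and 7.903 (median 7.73) in GFP livers and between 5.86 and 6.51 (median 6.09) in hApoF livers. It was 2.80-fold lower (log2 change -1.48, SE 0.15, limma adjusted p = 2.8e-05). Its partner Prim2, the large primase subunit, was between 6.83 and 7.38 (median 7.14) in GFP livers and between 6.54 and 6.82 (median 6.62) in hApoF livers, and the groups were apart by 0.013 (log2 change -0.46, SE 0.09, limma adjusted p = 0.0047). Pola1, the catalytic subunit of polymerase alpha, fell from 6.82 ± 0.28 (SD, n = 6) to 6.08 ± 0.18 (n = 6), and its groups were apart by 0.017 (log2 change -0.75, SE 0.12, limma adjusted p = 0.0013). Pola2, its regulatory subunit, also fell (log2 change -0.50, SE 0.10, limma adjusted p = 0.0084), with 4 hApoF arrays below the lowest GFP array.

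Both listed subunits of polymerase epsilon, the leading-strand enzyme, fell without overlap. Pole, its catalytic subunit, was between 6.04 and 6.74 (median 6.604) in GFP livers and between 5.05 and 5.79 (median 5.400) in hApoF livers (log2 change -1.13, SE 0.14, limma adjusted p = 1.4e-04). A second, dimmer Pole probe set gave -0.09 and did not pass (limma adjusted p = 0.688 over all probe sets). Pole2, its second subunit, was between 5.33 and 6.43 (median 6.12) in GFP livers and between 4.63 and 5.02 (median 4.84) in hApoF livers (log2 change -1.21, SE 0.16, limma adjusted p = 1.8e-04). Of polymerase delta, the lagging-strand enzyme, neither listed subunit passed the test. Pold1, the catalytic subunit, was between 5.48 and 5.93 (median 5.64) in GFP livers and between 5.52 and 5.73 (median 5.59) in hApoF livers (log2 difference -0.06, 95% interval -0.25 to 0.13, limma adjusted p = 0.743). Pold2 was between 6.39 and 6.69 (median 6.47) in GFP livers and between 6.19 and 6.51 (median 6.37) in hApoF livers (log2 difference -0.14, 95% interval -0.30 to 0.03, limma adjusted p = 0.328). Named after their values were seen, the remaining subunits gave falls for Pole3 (-0.48, limma adjusted p = 0.0077) and Pold3 (-0.46, limma adjusted p = 0.0083). Pole4 (-0.02) and Pold4 (0.12) did not pass. In all, 3 of 4 epsilon and 1 of 4 delta genes fell, and a difference between the enzymes was not tested.

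Of the 8 measured genes of the clamp, its loader, flap and nick processing and single-strand binding, 6 fell. Rpa1, the large subunit of the single-strand binding protein RPA, was between 7.38 and 8.12 (median 7.91) in GFP livers and between 6.62 and 7.05 (median 6.88) in hApoF livers (log2 change -0.96, SE 0.12, limma adjusted p = 9.6e-05), with no overlap. A second, dimmer Rpa1 probe set also fell, by 0.31 (limma adjusted p = 0.047 over all probe sets). Pcna, the sliding clamp, was between 8.88 and 9.56 (median 9.37) in GFP livers and between 8.53 and 8.91 (median 8.64) in hApoF livers. It fell 1.54-fold (log2 change -0.63, SE 0.10, limma adjusted p = 0.0016), and 5 of the 6 hApoF arrays lay below the lowest GFP array. Rfc5, a subunit of the loader that opens the clamp, was between 6.88 and 7.15 (median 7.01) in GFP livers and between 6.31 and 6.65 (median 6.59) in hApoF livers (log2 change -0.50, SE 0.08, limma adjusted p = 0.0016), without overlap. Lig1, the ligase that seals lagging-strand fragments, also fell without overlap (log2 change -0.90, SE 0.15, limma adjusted p = 0.0020).

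Smaller falls were those of Rpa2, the middle RPA subunit (log2 change -0.48, SE 0.14, limma adjusted p = 0.045), and Rfc3, a loader subunit (log2 change -0.29, SE 0.07, limma adjusted p = 0.027). The Rpa2 call was lost in 10 of 12 omissions of 1 array, all but GFP 4 and hApoF 11 (limma adjusted p 0.016 to 0.105), after repeated quantile normalization (0.063) and with array weights (0.052). The Rfc3 call was lost in 7, namely those of GFP 2, 3, 5 and 6 and hApoF 7, 10 and 12 (0.010 to 0.069). Rfc2, another loader subunit, was between 6.78 and 7.21 (median 6.99) in GFP livers and between 6.07 and 6.898 (median 6.799) in hApoF livers (log2 difference -0.35, 95% interval -0.64 to -0.06, limma adjusted p = 0.154).

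Fen1, the nuclease that trims RNA flaps, was the only gene of the 49 with a mean above that of GFP. It was between 4.54 and 5.34 (median 5.01) in GFP livers and between 5.04 and 5.46 (median 5.198) in hApoF livers (log2 difference 0.25, 95% interval 0.00 to 0.50, limma adjusted p = 0.226). A second Fen1 probe set, with means of 5.02 in GFP and 4.67 in hApoF livers, gave a difference of -0.35 (SE 0.14) with a limma adjusted p of 0.168 over all probe sets. The 2 probe sets thus disagree in sign, their mean gave -0.05 (limma adjusted p = 0.771), and the direction of Fen1 is not settled by these arrays.

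All 5 nucleotide supply genes fell. Rrm1, the large subunit of ribonucleotide reductase, which turns ribonucleotides into deoxyribonucleotides, was between 8.32 and 8.96 (median 8.77) in GFP livers and between 6.76 and 7.48 (median 6.998) in hApoF livers. The groups were apart by 0.837, and the fall was 3.18-fold (log2 change -1.67, SE 0.13, limma adjusted p = 7.9e-06), the lowest p of the 49 genes. Rrm2, its small subunit, was between 7.58 and 8.100 (median 7.82) in GFP livers and between 5.49 and 6.64 (median 6.05) in hApoF livers. The groups were apart by 0.939, and the fall was 3.39-fold (log2 change -1.76, SE 0.18, limma adjusted p = 2.6e-05). A second, dimmer Rrm2 probe set fell by 0.81 (limma adjusted p = 0.040 over all probe sets). Tyms, thymidylate synthase, was between 7.01 and 7.83 (median 7.28) in GFP livers and between 6.32 and 6.83 (median 6.599) in hApoF livers (log2 change -0.80, SE 0.14, limma adjusted p = 0.0020), without overlap.

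The last pair had overlapping groups. Dut, the enzyme that breaks down dUTP, fell from 7.46 ± 0.21 (SD, n = 6) to 6.98 ± 0.21 (n = 6) (log2 change -0.48, SE 0.11, limma adjusted p = 0.017), while a second, dimmer Dut probe set gave -0.09 and did not pass (limma adjusted p = 0.537 over all probe sets). Tk1, the cytosolic thymidine kinase, was between 7.61 and 7.93 (median 7.79) in GFP livers and between 7.29 and 7.77 (median 7.41) in hApoF livers (log2 change -0.33, SE 0.09, limma adjusted p = 0.034). Its call was lost in 9 of 12 omissions, all but GFP 4, GFP 5 and hApoF 10 (limma adjusted p 0.0063 to 0.083), and after repeated quantile normalization (0.058).

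All 5 genes of chromatin assembly and DNA methylation fell, each without overlap between groups. Chaf1b, a subunit of the CAF-1 complex that places histones on new DNA, was between 6.69 and 7.45 (median 7.27) in GFP livers and between 5.66 and 6.18 (median 5.88) in hApoF livers. It was 2.46-fold lower (log2 change -1.30, SE 0.12, limma adjusted p = 1.4e-05). Asf1b, a histone chaperone that hands histones to CAF-1, was between 5.99 and 6.96 (median 6.58) in GFP livers and between 5.16 and 5.71 (median 5.34) in hApoF livers (log2 change -1.20, SE 0.14, limma adjusted p = 7.3e-05). Chaf1a, the large CAF-1 subunit, was between 5.22 and 5.71 (median 5.62) in GFP livers and between 4.45 and 5.04 (median 4.97) in hApoF livers (log2 change -0.68, SE 0.11, limma adjusted p = 0.0012). Uhrf1, which guides DNA methylation to new strands, was between 5.97 and 6.31 (median 6.18) in GFP livers and between 5.43 and 5.76 (median 5.51) in hApoF livers (log2 change -0.61, SE 0.08, limma adjusted p = 1.3e-04). Dnmt1, the maintenance methyltransferase, fell from 7.999 ± 0.26 (SD, n = 6) to 7.26 ± 0.16 (n = 6) (log2 change -0.74, SE 0.11, limma adjusted p = 7.4e-04), with the groups apart by 0.043.

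Of the 4 genes of fork protection and turnover 3 fell. Dtl, part of the ubiquitin ligase that removes Cdt1 in S phase, was between 5.901 and 6.41 (median 6.31) in GFP livers and between 5.01 and 5.47 (median 5.299) in hApoF livers (log2 change -0.98, SE 0.10, limma adjusted p = 3.4e-05), without overlap. Tipin, a fork protection factor, was between 5.53 and 6.06 (median 5.84) in GFP livers and between 4.95 and 5.32 (median 5.24) in hApoF livers (log2 change -0.65, SE 0.09, limma adjusted p = 4.7e-04), also without overlap. Its partner Timeless was between 5.54 and 6.07 (median 5.75) in GFP livers and between 5.28 and 5.65 (median 5.58) in hApoF livers (log2 difference -0.24, 95% interval -0.45 to -0.03, limma adjusted p = 0.171). Clspn, claspin, an adaptor of the replication checkpoint, was between 4.97 and 5.23 (median 5.03) in GFP livers and between 4.46 and 4.98 (median 4.78) in hApoF livers (log2 change -0.34, SE 0.09, limma adjusted p = 0.037). Its probe set was dim, with means of 5.07 in GFP and 4.73 in hApoF livers against array medians of 4.93 to 5.03. The Clspn call was lost in 8 of 12 omissions, all but GFP 1, GFP 4, hApoF 8 and hApoF 9 (limma adjusted p 0.021 to 0.088), and without GFP 4 and hApoF 12 together (0.073). Without that pair of arrays Cdc6 had an adjusted p of 0.078.

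The genes were also split at the median of their mean signal over all arrays (6.42 on the log2 scale). Of the 25 with brighter probe sets 21 fell, with a median change of -0.76, and of the 24 with dimmer ones 15 fell, with a median of -0.44. The part of brightness in the calls was not tested.

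Partner genes were compared as log2 ratios within each array, in 12 pairs, by an exact two-sided permutation test over the 924 assignments of arrays, whose smallest p is 0.0022. Adjusted over the pairs, 7 ratios changed. The pairs were chosen with earlier results of these data known. Where a partner did not pass the limma test, the ratio carries mainly the change of the other gene. Rrm2 fell against Rrm2b, the ribonucleotide reductase subunit of resting and stressed cells and a p53 target, with a log2 ratio change of -2.01 (SE 0.20, exact permutation p = 0.0022, adjusted 0.0065). The ratio was 1.73 to 2.03 on GFP arrays and -0.84 to 0.33 on hApoF arrays. Rrm2b itself, between 5.68 and 6.104 on GFP and between 5.96 and 6.35 on hApoF arrays, did not pass the limma test (log2 difference 0.24, 95% interval 0.04 to 0.45, limma adjusted p = 0.154). Dbf4 fell against Cdc7, with a ratio change of -1.10 (SE 0.19, exact permutation p = 0.0043, adjusted 0.0087), with ratios of 1.63 to 2.31 and 0.61 to 1.64 that overlapped by 1 hApoF array. The Cdc7 probe set was dim, with means of 4.84 in GFP and 4.81 in hApoF livers against array medians of 4.93 to 5.03.

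Prim1 fell against Prim2, with a ratio change of -1.02 (SE 0.14, exact permutation p = 0.0022, adjusted 0.0065), with ratios of 0.13 to 0.83 on GFP and -0.89 to -0.29 on hApoF arrays. Chaf1b fell against Chaf1a (ratio change -0.62, SE 0.09, exact permutation p = 0.0022, adjusted 0.0065), without overlap (1.47 to 1.76 and 0.83 to 1.22). Cdt1 fell against its inhibitor Gmnn (ratio change -0.55, SE 0.14, exact permutation p = 0.0022, adjusted 0.0065; 0.92 to 1.25 and -0.05 to 0.90). Tk1 fell against the mitochondrial kinase Tk2 (ratio change -0.49, SE 0.11, exact permutation p = 0.0043, adjusted 0.0087; 0.16 to 0.65 and -0.38 to 0.23). Tk2 itself was between 7.18 and 7.65 on GFP and between 7.38 and 7.66 on hApoF arrays and did not pass the limma test (log2 difference 0.16, 95% interval -0.02 to 0.35, limma adjusted p = 0.291). The ratio of Mcm10 to Mcm7 was higher by 0.52 in hApoF livers (SE 0.17, exact permutation p = 0.013, adjusted 0.022; 0.01 to 0.95 and 0.63 to 1.37). Mcm7 was between 6.51 and 7.18 (median 6.89) in GFP livers and between 5.62 and 6.38 (median 6.17) in hApoF livers.

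For 5 pairs the ratio did not pass. Rrm2 against Rrm1 differed by -0.09 (SE 0.15, exact permutation adjusted p = 0.61), Pole2 against Pole by -0.08 (SE 0.14, 0.61) and Pold1 against Pold2 by 0.08 (SE 0.12, 0.61). Orc6 against Orc2 differed by -0.14 (SE 0.14, 0.54) and Orc1 against Orc2 by 0.01 (SE 0.16, 0.98). These values do not show that the partners changed equally. With all probe sets of a gene averaged, the Pole2 to Pole ratio differed by -0.60 (exact permutation adjusted p = 0.019) and that of Rrm2 to Rrm1 by 0.38 (0.052).

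**Figure D4:**
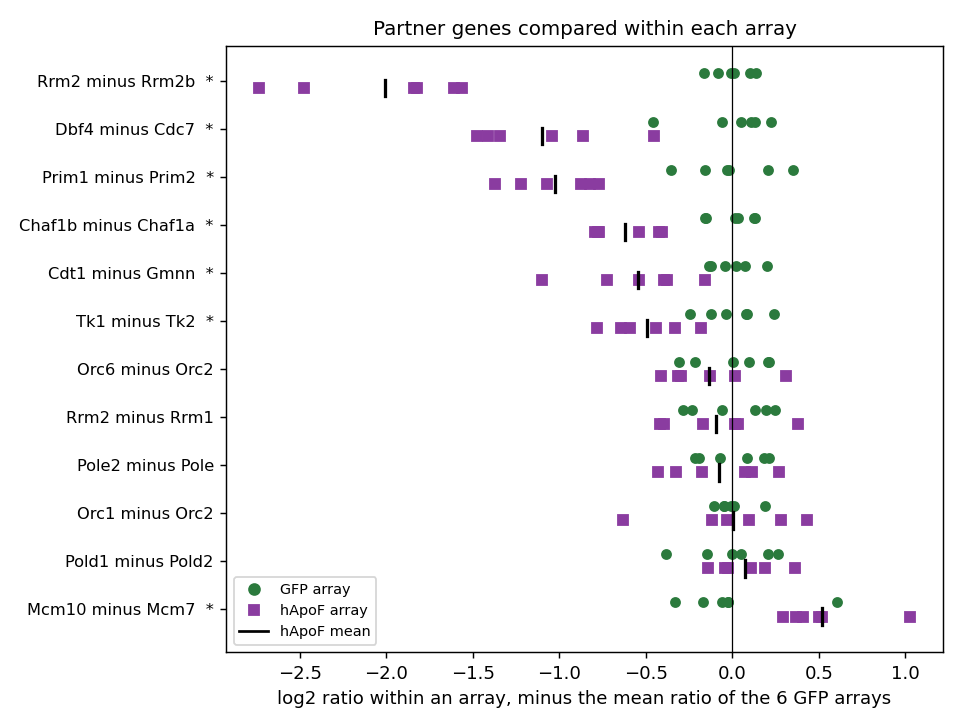
Log2 ratio of partner genes within each array, minus the mean ratio of the 6 GFP arrays (GFP circles, hApoF squares, black bar the hApoF mean). Asterisks mark the 7 of 12 pairs with an adjusted exact permutation p under 0.05. Rrm2 against Rrm2b shows the widest separation and Mcm10 against Mcm7 the only asterisk to the right of 0.

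Beyond the 49 genes, 40 further replication factors were measured, of which 22 fell, 0 rose and 18 did not pass, with a median change of -0.36. Of all genes 4.8% were called lower and 2.11% higher. Wdhd1, which links the helicase to polymerase alpha, fell 2.41-fold (log2 change -1.27, SE 0.13, limma adjusted p = 3.0e-05). Top2a, the topoisomerase that untangles replicated DNA and is also a mitotic gene, fell 3.29-fold (-1.72, SE 0.19, limma adjusted p = 4.9e-05). Ticrr, which brings Cdc45 to origins, fell 1.78-fold (-0.83, SE 0.11, limma adjusted p = 2.2e-04). Cdca7, which acts with the remodeller Hells on DNA methylation, fell 1.82-fold (-0.86, SE 0.11, limma adjusted p = 2.3e-04). For each of these 4 no hApoF array reached a GFP array, as was so for 3.49% of all genes.

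Of 31 further enzymes and carriers of nucleotide supply 4 fell (12.9%), 0 rose and 27 did not pass, with a median change of -0.02. Of all genes 4.8% were called lower and 2.11% higher. Ctps, CTP synthase, fell 1.75-fold, from 6.77 ± 0.10 (SD, n = 6) to 5.96 ± 0.16 (n = 6) (limma adjusted p = 2.7e-05). Dtymk, thymidylate kinase, fell 1.79-fold, from 7.57 ± 0.13 to 6.73 ± 0.29 (n = 6 each, limma adjusted p = 3.7e-04). Umps, the last enzyme of UMP synthesis, fell 1.45-fold (limma adjusted p = 0.0020), and Dck, deoxycytidine kinase, 1.48-fold (limma adjusted p = 0.0063). For each of these 4 every hApoF array lay below every GFP array, as was so for 3.49% of all genes.

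Beside these lists, all 24 measured genes of a mitotic list fell, where 4.8% of all genes were called lower. Their median change was -1.66, with values from -2.402 to -0.67. Those with the lowest p were Prc1, which bundles spindle microtubules (log2 change -2.24, limma adjusted p = 8.3e-06), Ect2, which starts cytokinesis (-2.402, 8.5e-06), Cdc20, which switches on the ligase that starts anaphase (-1.68, 8.5e-06), and Mad2l1, a spindle checkpoint protein (-1.52, 8.5e-06). The corresponding range of the 49 replication and nucleotide supply genes was -1.79 to 0.25. No test of the difference between the lists was made.

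**Figure D5:**
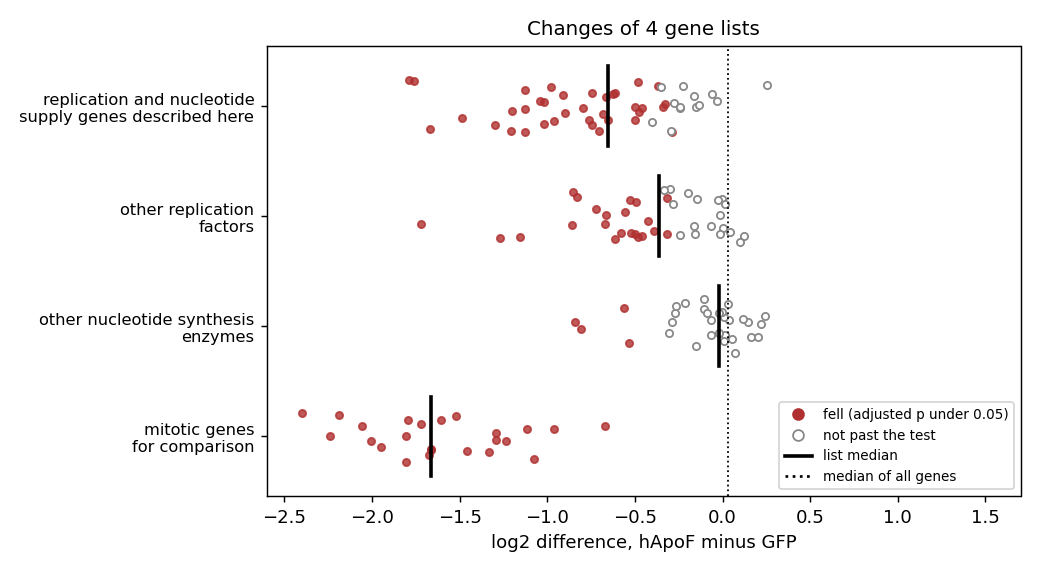
Log2 difference, hApoF minus GFP, of each gene in 4 lists (points; red fell at an adjusted p under 0.05, open grey did not pass; vertical jitter only separates points). Black bars are list medians of -0.65, -0.36, -0.02 and -1.66 from top to bottom, and the dotted line is the median of all genes, 0.03.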

How the data were processed

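Liver RNA of 12 samples (6 GFP, 6 hApoF, grouped by their labels) was measured on 1 array each. The deposited values are log2 expression per probe set, made by the authors with oligo and RMA per the submitters' processing notes; RMA subtracts background, quantile normalizes and summarizes probes. Software versions, genome build and annotation release were not given in the sources used. RMA narrows differences of dim genes, and as it evens out probe values between arrays, a change is relative to other genes. The deposited probe set values still differed in distribution, with array medians of 4.93 to 5.03. The number of arrays limits the precision.

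Of 35145 probe sets, 23521 had 1 gene symbol in the platform annotation, which can be old, 1814 had several and 9810 none listed; only the first were used. Each of 22180 genes was represented by the probe set with the highest mean over the 12 arrays, without a filter on dim genes. hApoF was compared with GFP in limma 3.58.1 (R 4.3.3, lmFit and eBayes, no covariates), with Benjamini-Hochberg adjustment over all genes and a threshold of 0.05. Tested on simulated data for these genes, the fit found 54% of 50 genes with a log2 change of 0.5 and 100% of 50 with a change of 1, and made 9 false calls. The simulated noise was independent between genes and few genes were changed. In the real data many genes shifted together on an array, so these figures need not hold there. Pair ratios were tested with scipy 1.17.1. Tables used Python 3.11.15 with pandas 2.3.3, and plots matplotlib 3.10.9.

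The members, lists and tests were chosen with earlier results of these data known. Values are given for the 3 genes of each role with the lowest p, all that did not pass and both genes of pairs that changed; of further lists, the 4 called genes of lowest p. Alternatives were other scalings, variance models, weights, probe set rules, a filter on dim genes and omission of arrays.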

Additional observations from a re-analysis of the deposited data

Results flagged for a closer look

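For 8 of the 98 sets of 6 arrays (49 genes in each group), the most extreme array stood farther from the rest than Dixon's 95% limit for 6 values. Chance flags about 1 in 20 such sets on average. Genes measured on the same arrays vary together, so flags can cluster and the count of 8 is no test of an excess. GFP 4 was the array that stood apart, as the lowest GFP value, for Dbf4 (6.36, the others 6.95 to 7.11), Chaf1a (5.22, the others 5.54 to 5.71) and Dnmt1 (7.498, the others 8.004 to 8.22). hApoF 12 was the lowest hApoF value for Cdc45 (4.75, the others 5.14 to 5.32) and Chaf1a (4.45, the others 4.86 to 5.05). hApoF 8 was the lowest for Tipin (4.95, the others 5.21 to 5.32). hApoF 10 was the highest for Tk1 (7.77, the others 7.29 to 7.46), and GFP 5 the highest GFP value for Pold2 (6.69, the others 6.39 to 6.48).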

How the results depend on the processing

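The count of members called lower was 31 to 37 when 1 array was left out and 33 to 37 under the other alternatives (33 of the 42 members above the median level of all genes), and 0 were higher in every one. The median change of the members was -0.72 to -0.60 over omissions. Of the 36 genes that fell, 31 kept their call in every alternative that tested them; the other 5 were Cdc6, Rfc3, Rpa2, Tk1 and Clspn. Over omissions the count of all genes called lower was 748 to 1335 and of those called higher 254 to 653. The ratio of Orc1 to Orc2 was -0.0795 to 0.133 over omissions and -0.12 after repeated quantile normalization, and that of Pold1 to Pold2 was -0.0003 to 0.13, and -0.0093 without GFP 4 and hApoF 12 together. With all probe sets of a gene averaged, the change of Fen1 was -0.049, the ratio of Rrm2 to Rrm1 0.38 and that of Pole2 to Pole -0.60; the second Rrm2 and Pole probe sets were dimmer. The change of Cdc7 was -0.106 to 0.033 over omissions. The cause of these shifts was not tested. The 7 ratios that changed kept their call in all alternatives run for them. No paired analysis was possible because the groups share no replicate numbers.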
